A study of Oryza sativa with 6 samples.

Results

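The methionine salvage genes are the genes of the rice root transcriptome whose descriptions name a compound or enzyme with a methylthio group, together with SIP2 (BGIOSGA031909) and BGIOSGA035012, which were named by identifier. There were 7 such genes among 40745 gene models and 42031 features in all. Only 5542 of the gene models carried a description, so the others could not be matched by text. An enzyme without a match may therefore still have a gene among them. The text match alone gave the same 7 genes, because the descriptions of SIP2 and BGIOSGA035012 also contain the word. The set was selected on the TPM values of Fo+Cd against Cd: it was put forward, and these identifiers were named, with earlier results of that comparison known. The differences between the groups are therefore given for the 7 genes as a description, and no exact p-value is printed for them. Their calls, intervals and ranks come from the fit over all features. These are not corrected for the way the genes were chosen and are no test of the set. Of the 7, 6 are described as enzymes of the cycle. BGIOSGA030000, described as a methylthiotransferase, is not a cycle enzyme: its relatives in bacteria attach methylthio groups to tRNA.

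The samples were roots of wild-type rice (Oryza sativa) kept in a greenhouse with 12 h of light at 30 °C and 12 h of dark at 28 °C. In 3 libraries (Fo+Cd) the plants received 0.5% Fo10 together with 10 µM cadmium, and in 3 libraries (Cd) they received 10 µM cadmium alone. All plants were thus under cadmium, and roots without cadmium or with Fo10 alone were not analysed here. What Fo10 is remains unstated in the labels, as does whether replicates came from separate cultures, so the spread between libraries may be technical. Expression was measured as TPM (transcript abundance scaled for transcript length and to a fixed total per library), a unit recognised from the values, so levels of different genes can be compared. TPM keeps no record of sequencing depth, which is unknown, and no counting intervals were computed.

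The libraries summed to 96.3% to 96.7% of the TPM scale over the listed features. Pearson correlations of log2(TPM + 1) across features ran between 0.957 and 0.977 for libraries of the same group, and between 0.942 and 0.954 for libraries of different groups. Of 24 shoot marker genes (chlorophyll-binding, photosystem II and Rubisco small-subunit genes), 6 were listed at 0 in every library and 16 stayed under 1 TPM. Their summed level was 23.4 to 33.2 TPM in Fo+Cd and 23.9 to 26.0 TPM in Cd. Of the root markers sought, 1 was matched, a silicon efflux transporter (BGIOSGA011605) at 904 ± 199 TPM in Fo+Cd and 715 ± 106 TPM in Cd (SD, n = 3 each).

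Plants use S-adenosylmethionine, made from methionine, to build nicotianamine, ethylene and polyamines. Each of these routes releases methylthioadenosine, and the salvage cycle (the Yang cycle) returns its methylthio group to methionine. Methylthioadenosine is split to methylthioribose, which a kinase phosphorylates. An isomerase then makes methylthioribulose-1-phosphate, a dehydratase/enolase-phosphatase turns that into acireductone, and acireductone dioxygenase oxidises acireductone to the keto acid that a transaminase converts to methionine. In barley roots, genes of the cycle are known for induction under iron deficiency, when nicotianamine is consumed for phytosiderophores. In rice, the dioxygenase gene SIP2 (also called ARD1) is known as induced by submergence. No gene description containing the word methylthio named the nucleosidase, the kinase or the transaminase, so values are given here from the isomerase to the dioxygenase.

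Transcripts of the isomerase, the dehydratase/enolase-phosphatase and the dioxygenases were more abundant in Fo+Cd than in Cd, except for the dioxygenase BGIOSGA016156. SIP2 differed most, with 39.1 ± 5.74 TPM in Fo+Cd and 17.4 ± 4.19 TPM in Cd (SD, n = 3 each), a 2.25-fold ratio of means. The isomerase stood 1.64-fold higher and the dehydratase/enolase-phosphatase 1.47-fold higher. ARD2, the most abundant gene of the set, was 1.24-fold higher. In 5 of the 7 genes every Fo+Cd library lay above every Cd library, a pattern seen in 11.3% of all features tested. The set was put forward with this contrast known, so nothing can be read from 5 of 7 against that share.

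Changes across the transcriptome were tested with limma on log2(TPM + 1), over the 21166 features that reached 1 TPM in 3 or more libraries. All 7 genes passed this filter. A feature was called at a Benjamini-Hochberg adjusted p under 0.05. SIP2, BGIOSGA035012 and BGIOSGA033987 were among the called features, so 3 of the 7 were called higher and 0 lower, while 5 had an unadjusted p under 0.05. Of all features tested, 2.45% were called, 1.72% higher and 0.723% lower, and of the gene models whose descriptions cite a database, as those of all 7 genes do, 1.28% were called higher. Nothing can be read from the count of 3 against these shares, since the genes were put forward with that contrast known. The median log2 fold change was 0.55 over the 7 genes, beside 0.0025 over all features tested, and the same limit holds for it. The count varied with the library left out: it was 1, the isomerase, without Fo+Cd replicate 1, Fo+Cd replicate 2 or Cd replicate 3. It was 0 without Fo+Cd replicate 3, where 5 still had an unadjusted p under 0.05. Calls over all features fell in the same fits, from 518 with all 6 libraries to 269, 253, 240 and 189, in that order. The count stayed at 3 without Cd replicate 1 or Cd replicate 2, where 310 and 726 features were called. In bulk roots, a change in the share of cells that express a gene cannot be told apart from a change of RNA per cell.

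**Figure D1:**
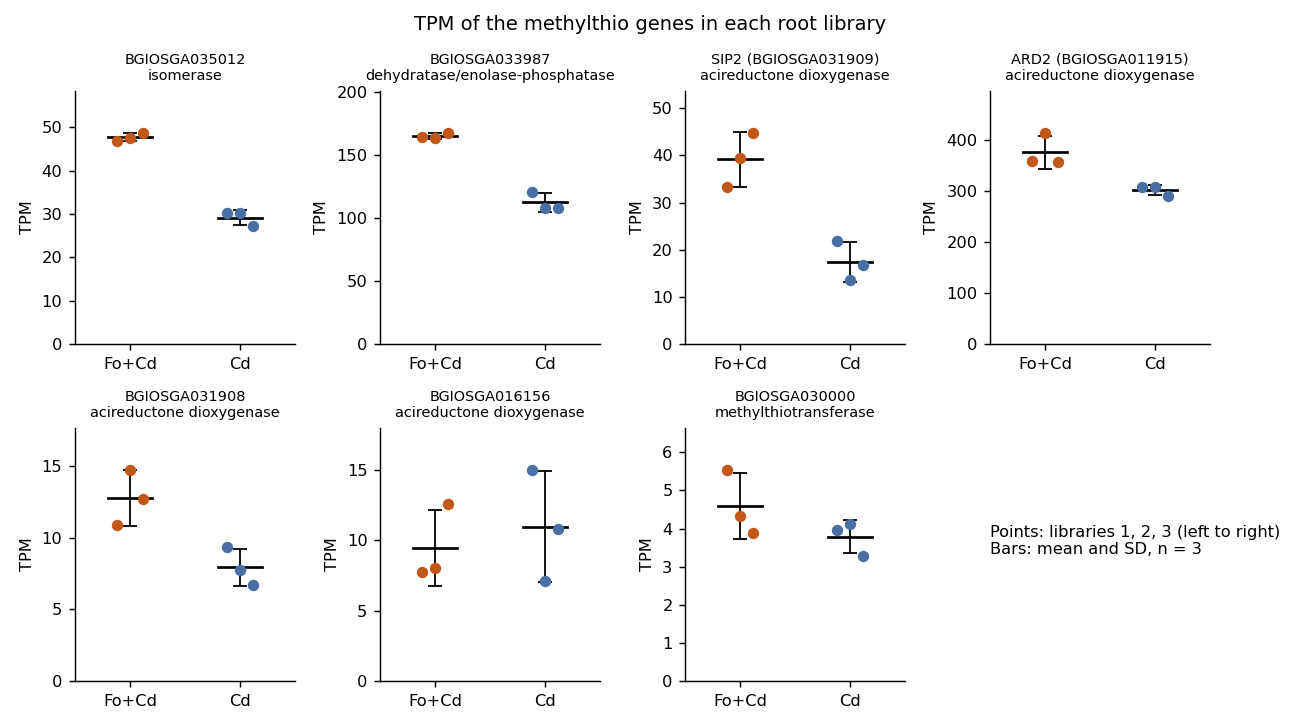
TPM of each gene (vertical axis, from 0) in the 3 Fo+Cd and 3 Cd libraries, with a point for each library and bars for the mean and SD. The groups are apart in 5 of the 7 panels and overlap for BGIOSGA016156 and BGIOSGA030000.

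BGIOSGA035012 is annotated as the methylthioribose-1-phosphate isomerase, the enzyme that opens the sugar ring for the later steps. Its levels were 46.8, 47.6 and 48.6 TPM in Fo+Cd replicates 1, 2 and 3 and 30.1, 30.1 and 27.2 TPM in Cd replicates 1, 2 and 3. The 3 Fo+Cd values lay close together and well above the highest Cd value. The log2 fold change was 0.69 (SE 0.080, 95% interval 0.50 to 0.88), above that of 96.7% of the features tested. That rank is not independent of how the gene was chosen. Among the 7 genes BGIOSGA035012 had the smallest SE in relation to its change.

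BGIOSGA033987 is annotated as a probable bifunctional methylthioribulose-1-phosphate dehydratase/enolase-phosphatase, which carries out consecutive steps in a single protein. It was at 164, 164 and 168 TPM in Fo+Cd replicates 1, 2 and 3 and at 121, 108 and 108 TPM in Cd replicates 1, 2 and 3. No Cd library came near the Fo+Cd range, and Cd replicate 1 was the highest of its group. The log2 fold change was 0.55 (SE 0.083, 95% interval 0.36 to 0.75). Its transcript outnumbered that of the isomerase in every library. The ratio of their TPM was 3.51, 3.43 and 3.45 in Fo+Cd replicates 1, 2 and 3, against 4.02, 3.60 and 3.98 in the Cd replicates 1, 2 and 3.

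The next step had 4 genes described as acireductone dioxygenases (1,2-dihydroxy-3-keto-5-methylthiopentene dioxygenases). These metal-dependent enzymes yield the methionine precursor when they hold iron, whereas the nickel-bound form yields other products and leaves the cycle. SIP2 was at 33.3, 39.4 and 44.7 TPM in Fo+Cd replicates 1, 2 and 3 and at 21.8, 13.5 and 16.8 TPM in Cd replicates 1, 2 and 3. The lowest Fo+Cd library was above the highest Cd library, but both groups were spread widely. Its log2 fold change was 1.14 (SE 0.184, 95% interval 0.71 to 1.58), higher than that of 98.4% of the features tested. That rank, too, is not independent of how the gene was chosen.

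ARD2 (BGIOSGA011915) was at 358, 413 and 356 TPM in Fo+Cd replicates 1, 2 and 3 and at 307, 308 and 290 TPM in Cd replicates 1, 2 and 3. The groups did not overlap, and Fo+Cd replicate 2 stood above the rest. The log2 fold change was 0.31 (SE 0.095, 95% interval 0.09 to 0.54), and the gene was not among the called features. Its mean level exceeded that of 97.9% of the features tested.

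BGIOSGA031908, a further dioxygenase whose identifier is next to that of SIP2, was at 10.9, 14.8 and 12.7 TPM in Fo+Cd replicates 1, 2 and 3 and at 9.33, 7.72 and 6.73 TPM in Cd replicates 1, 2 and 3. The groups were apart by a small margin, between Fo+Cd replicate 1 and Cd replicate 1. The log2 fold change of 0.63 (SE 0.158, 95% interval 0.25 to 1.00) was not called. BGIOSGA016156, the remaining dioxygenase, was at 7.72, 8.05 and 12.5 TPM in Fo+Cd replicates 1, 2 and 3 and at 15.0, 7.08 and 10.8 TPM in Cd replicates 1, 2 and 3. Its groups overlapped throughout, and the log2 fold change was -0.17 (SE 0.282, 95% interval -0.84 to 0.50); without Cd replicate 1 it was 0.067. Reads may be shared between these related genes, so the values of single dioxygenases are uncertain. In the RefSeq table of the japonica assembly ASM3414082v1, the records that carry the names SIP2 and ARD2 also carry names of heat stress transcription factors (HSFA2C and HSFA2D), so reads of neighbouring or overlapping genes may enter as well. This was not tested. In that assembly RefSeq classes the record named SIP2 as a transcribed pseudogene and the record named ARD2 as protein-coding. Whether the class of the SIP2 record holds for BGIOSGA031909 was not tested.

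**Figure D2:**
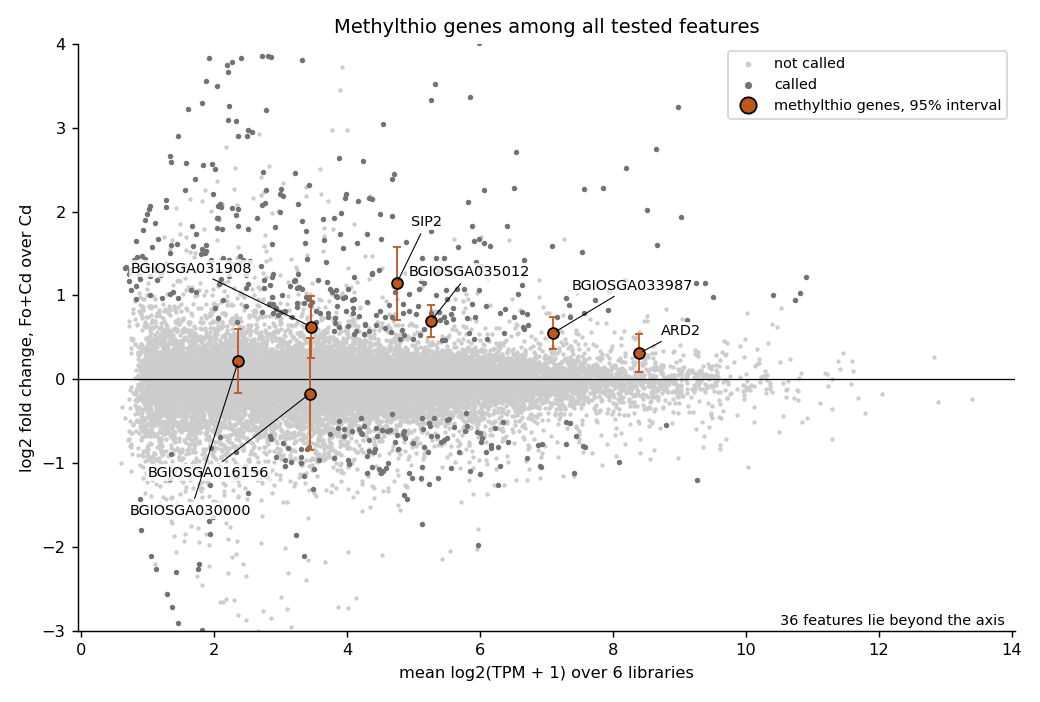
Log2 fold change of Fo+Cd over Cd (vertical axis) against the mean log2(TPM + 1) of the 6 libraries (horizontal axis) for all features tested, with the 7 genes and their 95% intervals. SIP2 lies highest of the 7 at 1.14 and ARD2 farthest to the right, and 36 features lie beyond the vertical axis.

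Summed over the 4 dioxygenase genes, the level was 437 ± 34.0 TPM in Fo+Cd and 338 ± 14.6 TPM in Cd (SD, n = 3 each). The lowest Fo+Cd library held 409.8 TPM and the highest Cd library 353 TPM. ARD2 supplied most of the sum, 85.9% ± 2.06 in Fo+Cd and 89.3% ± 2.33 in Cd. It also made up 74.6% of the difference between the group sums, although its own fold change was the smaller. SIP2 made up 22.0% of that difference.

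In the makeup of the dioxygenase transcripts, the mean share of SIP2 was larger in Fo+Cd and that of ARD2 smaller. The ARD2 shares overlapped, at 83.6% to 87.3% in Fo+Cd and 86.9% to 91.6% in Cd. SIP2 held 8.11% to 10.5% of the summed TPM in Fo+Cd libraries and 4.01% to 6.18% in Cd libraries, ranges that do not overlap. ARD2 exceeded SIP2 by 10.8, 10.5 and 7.96 times in Fo+Cd replicates 1, 2 and 3, against 14.1, 22.8 and 17.3 times in Cd replicates 1, 2 and 3. BGIOSGA031908 held 2.65% to 3.10% in Fo+Cd and 2.08% to 2.64% in Cd, also without overlap but by a very narrow margin. BGIOSGA016156 held 1.69% to 2.94% in Fo+Cd and 2.10% to 4.24% in Cd, with overlap. These shares come from the same contrast that was known when the genes were chosen, and no test was made of them.

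**Figure D3:**
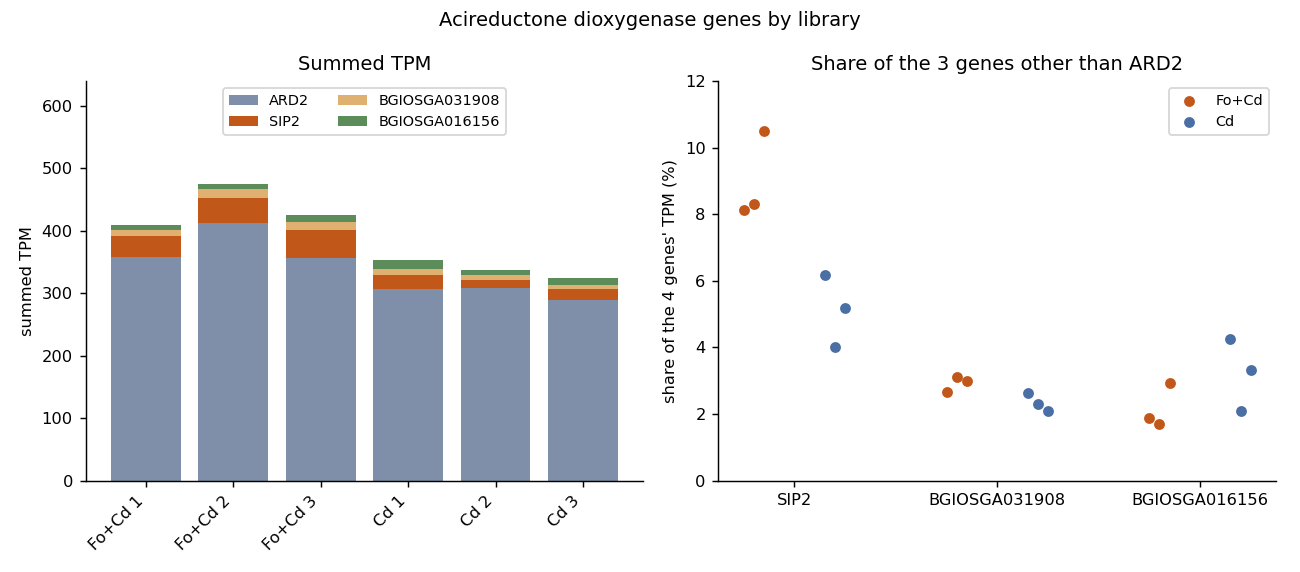
Left, TPM of the 4 acireductone dioxygenase genes stacked for each library. Right, the share of the 4 genes' TPM (%) held by SIP2, BGIOSGA031908 and BGIOSGA016156, with a point for each library; the SIP2 shares lie above 8% in Fo+Cd and below 6.2% in Cd.

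In the order of levels, ARD2 came first in both groups, then BGIOSGA033987, the isomerase and SIP2. The ranges of these 4 genes did not overlap each other within either group. The dioxygenases BGIOSGA031908 and BGIOSGA016156 followed with overlapping ranges, so their order is not resolved; by means it was BGIOSGA031908 first in Fo+Cd (12.8 against 9.43 TPM) and BGIOSGA016156 first in Cd (11.0 against 7.93 TPM). The methylthiotransferase BGIOSGA030000 was the lowest, at 5.54, 4.34 and 3.88 TPM in Fo+Cd replicates 1, 2 and 3 and 3.95, 4.12 and 3.29 TPM in Cd replicates 1, 2 and 3. Its groups overlapped, and its log2 fold change was 0.22 (SE 0.163, 95% interval -0.17 to 0.60).

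**Figure D4:**
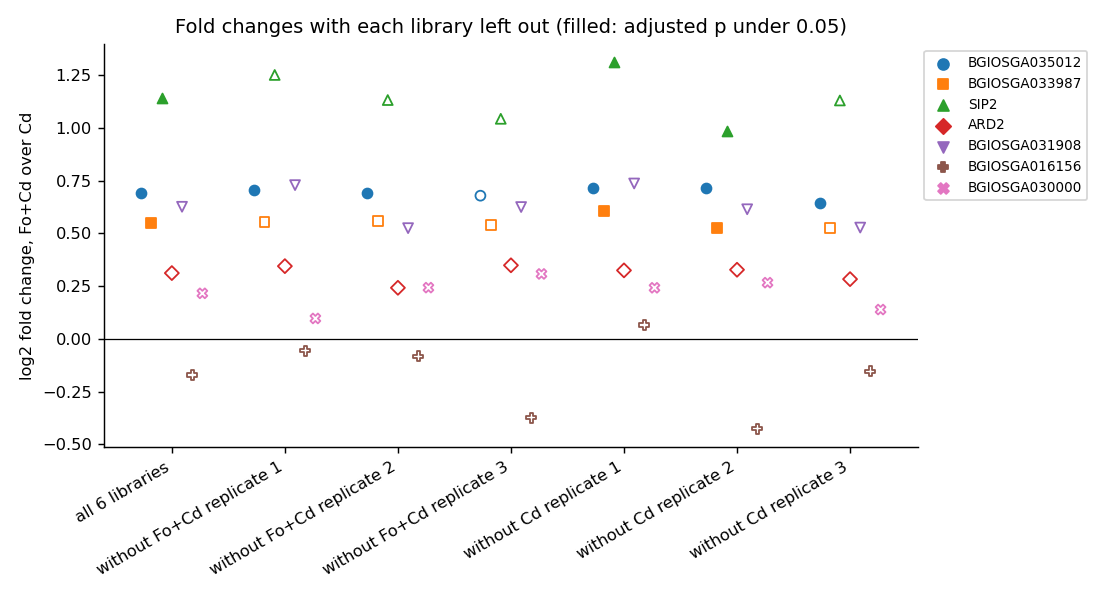
Log2 fold change of Fo+Cd over Cd (vertical axis) for the 7 genes with all 6 libraries and with each library left out in turn (horizontal axis); filled symbols have an adjusted p under 0.05 in limma. SIP2 ranges from 0.99 to 1.31 and the isomerase from 0.65 to 0.72, while BGIOSGA016156 crosses 0.

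The routes that draw on S-adenosylmethionine were examined next, from lists matched by gene description or name. These lists, too, were chosen with earlier results of these data known. The adjusted p-values of their genes come from the fit over all features and are not corrected for that choice. Most gene models carried no description, so each route may have further genes that were not matched. Of all features tested, 2.45% were called. The lists are short, so a single call in a list is no result about its route. For nicotianamine and phytosiderophores, which chelate iron, 3 genes were matched and 2 tested, and neither was called in limma over all features, while 1 had an unadjusted p under 0.05. Nicotianamine synthase 2 (BGIOSGA010884), which joins S-adenosylmethionine units into nicotianamine, was at 221, 254 and 276 TPM in Fo+Cd replicates 1, 2 and 3 and at 173, 75.3 and 139 TPM in Cd replicates 1, 2 and 3. Every Fo+Cd library was above every Cd library, but the Cd libraries varied widely, and the log2 fold change of 1.03 (SE 0.297) did not pass in limma (adjusted p = 0.168). Without Cd replicate 2, the lowest library, the log2 fold change was 0.68 (adjusted p = 0.0724), and it ranged up to 1.28 with other libraries left out. A transporter of metal-nicotianamine complexes (BGIOSGA014628) was at 123 ± 19.1 TPM in Fo+Cd and 115 ± 11.1 TPM in Cd (SD, n = 3 each).

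Of 5 genes matched by the iron deficiency list, 1 was called, higher in Fo+Cd, beside 1.72% of all features tested. The list joins ferritin genes, which store iron, to an uptake gene and a regulator. Its members need not change in the same direction under iron deficiency. The iron-regulated transporter gene IRT2 (BGIOSGA010094) rose to 12.0 ± 2.26 TPM in Fo+Cd, against 5.03 ± 0.939 TPM in Cd (SD, n = 3 each; log2 fold change 1.11, limma adjusted p = 0.0245). Its description cites no database, and 91.2% of the tested genes so described were called, so its place in a list is not independent of its change. The call was lost without any one library other than Cd replicate 2 (adjusted p 0.0576 to 0.097). IRO2 (BGIOSGA000097), a transcription factor of the iron deficiency response, was at 205 ± 5.03 TPM in Fo+Cd and 198 ± 11.9 TPM in Cd, with a log2 fold change of 0.05 (95% interval -0.15 to 0.25). The ferritin BGIOSGA036792, an iron store, was at 22.6 ± 0.989 TPM in Fo+Cd and 16.9 ± 3.39 TPM in Cd (adjusted p = 0.226). The other 2 genes of the list, given after their values were seen, had lower means in Fo+Cd and did not pass. The ferritin BGIOSGA034644 was at 16.9 ± 1.65 TPM in Fo+Cd and 18.8 ± 1.96 TPM in Cd (adjusted p = 0.594). BGIOSGA003614, described as a ferritin/ribonucleotide reductase-like protein, was at 9.31 ± 3.02 TPM in Fo+Cd and 13.4 ± 1.63 TPM in Cd (adjusted p = 0.323). The median log2 fold change of the 5 genes was 0.05, which pools the ferritin genes with IRT2 and IRO2.

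Ethylene is made from S-adenosylmethionine by ACC synthase and ACC oxidase. Of 4 tested genes of these enzymes, 1 was called, in the direction opposite to SIP2. Of all features tested, 0.723% were called lower. The ACC synthase gene ACS1 (BGIOSGA009886) was at 3.42, 3.68 and 3.78 TPM in Fo+Cd replicates 1, 2 and 3 and at 7.83, 9.75 and 10.7 TPM in Cd replicates 1, 2 and 3. It fell by 1.16 on the log2 scale (SE 0.144, limma adjusted p = 0.00939), and the groups were far apart. Its description also cites no database. Of the tested genes so described 91.2% were called, so its place in the list is not independent of its change. The ACC oxidase gene with the highest level, BGIOSGA020995, was at 14.0 ± 2.51 TPM in Fo+Cd and 17.9 ± 1.02 TPM in Cd (SD, n = 3 each; adjusted p = 0.308). The ACC oxidase gene BGIOSGA029654, given after its values were seen, was at 5.75 ± 0.515 TPM in Fo+Cd and 4.08 ± 0.994 TPM in Cd, with every Fo+Cd library above every Cd library (adjusted p = 0.302). ACO1 (BGIOSGA030879), the last of the 4, was at 1.77 ± 1.38 TPM in Fo+Cd and 1.72 ± 0.256 TPM in Cd (adjusted p = 0.938). The median log2 fold change of the 4 genes was -0.21.

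None of 3 tested ethylene receptor genes was called in limma, and 1 had an unadjusted p under 0.05. ERS1 (BGIOSGA009973) was at 60.7 ± 1.88 TPM in Fo+Cd and 61.3 ± 2.35 TPM in Cd (SD, n = 3 each), with a 95% interval of the log2 fold change from -0.19 to 0.17. BGIOSGA015886, an ethylene receptor-like gene, was at 42.1 ± 1.92 TPM in Fo+Cd and 35.0 ± 1.26 TPM in Cd (adjusted p = 0.178). The median log2 fold change of the list was 0.05.

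Polyamine synthesis releases methylthioadenosine at each aminopropyl transfer. Of 5 tested genes of 7 matched, 1 was called, higher in Fo+Cd, beside 1.72% of all features tested. ACL5 (BGIOSGA006817), described as a thermospermine synthase, an aminopropyl transferase known in Arabidopsis for its part in xylem development, was at 21.6, 23.0 and 24.8 TPM in Fo+Cd replicates 1, 2 and 3. In the Cd libraries, replicates 1, 2 and 3 held 10.2, 12.1 and 12.0 TPM. The groups were far apart, and ACL5 rose by 0.96 on the log2 scale (SE 0.107, limma adjusted p = 0.00579), a call that held with each library left out. The abundant S-adenosylmethionine decarboxylase gene BGIOSGA016698, whose product supplies the aminopropyl groups, was at 446 ± 23.4 TPM in Fo+Cd and 397 ± 12.7 TPM in Cd (SD, n = 3 each; adjusted p = 0.41). The arginine decarboxylase gene BGIOSGA022007 was at 211 ± 12.8 TPM in Fo+Cd and 202 ± 18.6 TPM in Cd. A second arginine decarboxylase gene, BGIOSGA015766, chosen after its values were seen, was at 12.6, 2.04 and 11.2 TPM in Fo+Cd replicates 1, 2 and 3 and at 0.85, 0.36 and 0.82 TPM in Cd replicates 1, 2 and 3. It did not pass (adjusted p = 0.127), with Fo+Cd replicate 2 far below the other Fo+Cd libraries. Every Cd library was under 1 TPM, so BGIOSGA015766 met the filter only through the Fo+Cd group. That it was tested is therefore not independent of its direction. The median log2 fold change of the 5 tested genes, BGIOSGA015766 included, was 0.17.

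The remaining routes to and from S-adenosylmethionine held 1 matched gene each, and neither was called. Homocysteine S-methyltransferase 1 (BGIOSGA012137), which makes methionine from homocysteine, was at 37.6, 49.1 and 47.0 TPM in Fo+Cd replicates 1, 2 and 3 and at 33.5, 37.3 and 37.3 TPM in Cd replicates 1, 2 and 3. The groups were apart by a narrow margin (log2 fold change 0.29, limma adjusted p = 0.302). Adenosylhomocysteinase (BGIOSGA034046), which clears the by-product of methyl transfer, was at 1095 ± 129.9 TPM in Fo+Cd and 1149 ± 63.2 TPM in Cd (SD, n = 3 each), with a 95% interval of the log2 fold change from -0.35 to 0.20. No description or gene name matched an S-adenosylmethionine synthetase.

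**Figure D5:**
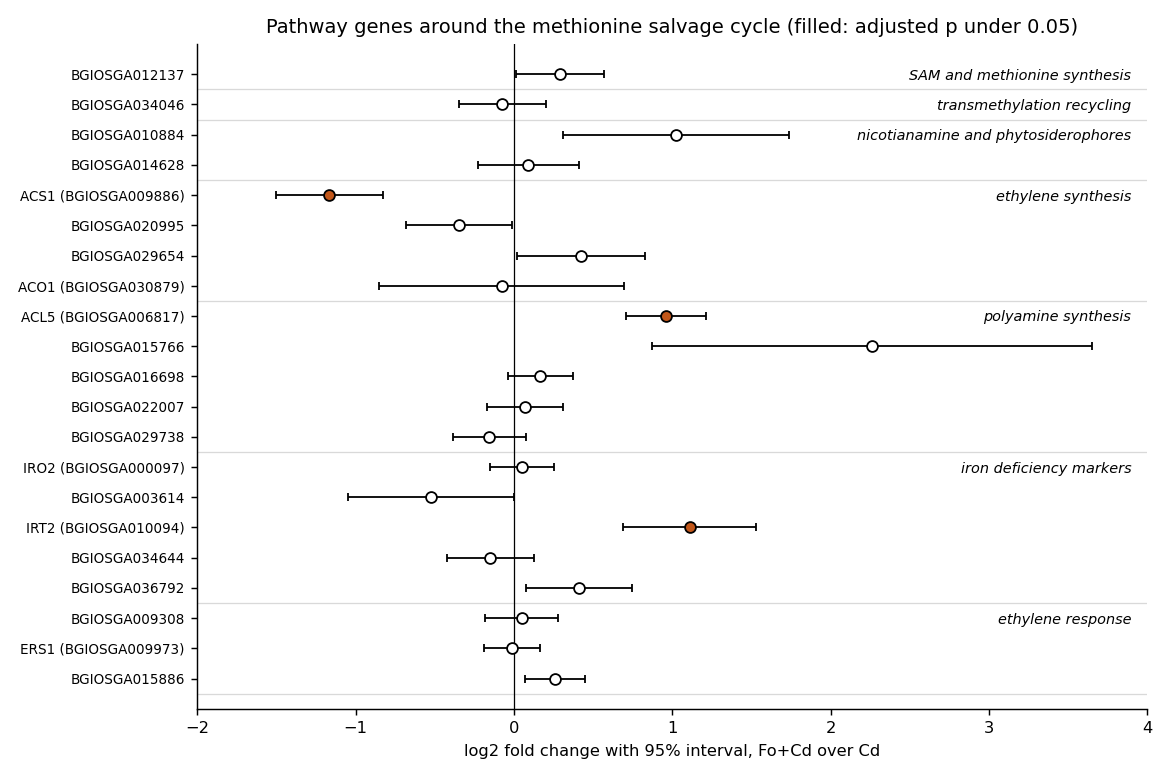
Log2 fold change of Fo+Cd over Cd with its 95% interval (horizontal axis) for the 21 tested genes of the 7 lists around the cycle (vertical axis). The filled symbols, with an adjusted p under 0.05 in limma, are ACS1 at -1.16, ACL5 at 0.96 and IRT2 at 1.11.

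The described genes whose log2(TPM + 1) followed that of SIP2 most closely over the 6 libraries were ranked by Pearson's r. They were BGIOSGA012040, a cytochrome b561 and DOMON domain-containing protein (r = 0.997), Asr2 (BGIOSGA005235, an ABA/WDS induced protein, r = 0.991), BGIOSGA008915 (ribose-phosphate pyrophosphokinase 4, r = 0.986), BGIOSGA023112 (hypothetical protein, r = 0.984) and BGIOSGA033575 (E3 ubiquitin-protein ligase WAV3, r = 0.984). All 5 were called higher in Fo+Cd, so the difference between the groups enters each r. Of the 5, only BGIOSGA008915 has a description that cites a database; the other 4 belong to the descriptions without a source, of which 91.2% were called, so that they were called is not independent of their being described. Like SIP2, all 5 were higher in Cd replicate 1 than in the other Cd libraries and lowest of the Fo+Cd group in Fo+Cd replicate 1. BGIOSGA012040 was at 54.1, 70.1 and 74.8 TPM in Fo+Cd replicates 1, 2 and 3 and at 32.5, 16.5 and 23.8 TPM in Cd replicates 1, 2 and 3. These r values describe 6 libraries in 2 groups and were not tested.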

How the data were processed

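The authors deposited a table of TPM values with 2 decimals; the unit was recognised from the values, since every library sums to nearly the same total, 96.3% to 96.7% of the TPM scale. Per the labels' protocols, RNA was extracted with TRIzol and 1 µg entered stranded mRNA libraries. The aligner and counter are not named in the sources used here, nor is a genome build. Columns of group means were not used. Values were transformed to log2(TPM + 1), so fold changes of genes near 1 TPM are understated. Features reaching 1 TPM in 3 or more libraries were tested with limma 3.58.1 in R 4.3.3 (trend and robust settings, no covariate). Benjamini-Hochberg adjustment ran over all features, with a threshold of 0.05. The fit was also run on simulated data with independent noise and shifts of 1 log2 unit up or down. That run does not cover smaller changes. Tables were made with Python 3.11.15 and pandas 2.3.3. The genes and lists were chosen with earlier results of these data known. List symbols had to equal the whole gene name and phrases were sought in descriptions; from each list the called genes and the 2 most abundant are named. In the closing section, 14 alternatives are reported.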

Additional observations from a re-analysis of the deposited data

How the results depend on the processing

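Of 21166 features 518 were called, 70.5% of them higher in Fo+Cd, and 189 to 726 with 1 library left out; the share higher was 50.6% without Cd replicate 2 and 89.2% without Cd replicate 3. Among the 7 methionine salvage genes 3 were called, and 0 to 3 with 1 library left out. With a replicate block the count was 1, the isomerase, and 353 features were called. The replicate numbers are not taken as pairs, since same-numbered libraries deviated together by correlations of only -0.03, 0.08 and 0.07. Without a filter on low values 2 were called, SIP2 being lost. The other 6 alternatives (pseudocounts of 0.1 and 5, a filter at 5 TPM, median-centred or quantile-normalized libraries, limma without trend and robust settings) gave 3 calls. The log2 fold changes of SIP2, BGIOSGA035012, BGIOSGA033987, ARD2 and BGIOSGA031908 were above 0 under all 14 alternatives. With 1 library left out, the sign turned for BGIOSGA016156 (-0.43 to 0.067, above 0 without Cd replicate 1), ERS1 (-0.040 to 0.014, above 0 without Cd replicate 2 and, at 0.012, without Fo+Cd replicate 3), BGIOSGA014628 (-0.012 to 0.21, below 0 without Fo+Cd replicate 2), BGIOSGA022007 (-0.0041 to 0.13, below 0 without Cd replicate 1), ACO1 (BGIOSGA030879, -0.46 to 0.13, above 0 without Fo+Cd replicate 2 and, at 0.10, without Fo+Cd replicate 3) and BGIOSGA034046 (-0.14 to 0.024, above 0 without Fo+Cd replicate 2); none of these genes was called. The ferritin BGIOSGA036792 was called only without Cd replicate 2 (adjusted p = 0.0458). ACS1 and ACL5 were called under all 14 alternatives. For ACS1 the limit set by its description without a database holds under each of them. The cause of these shifts was not tested. The depth behind TPM is unknown, which limits what can be said of BGIOSGA016156, BGIOSGA031908 and BGIOSGA030000, none above 15.0 TPM in any library.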

Other observations

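Genes around sulfate assimilation and cysteine, from which methionine sulfur is drawn, were looked up by description after the results above had been seen. The list includes sulfate transporters, adenylyl-sulfate kinases and a cystathionine beta-lyase, so its median is not that of cysteine synthesis alone. Of 12 matched genes 11 were tested, and 1 was called, lower in Fo+Cd, beside 0.723% of all features tested. The median log2 fold change was -0.11. A probable serine acetyltransferase (BGIOSGA006919), which makes the carbon skeleton of cysteine, fell to 1.05, 1.79 and 1.64 TPM in Fo+Cd replicates 1, 2 and 3, against 4.72, 4.51 and 5.61 TPM in Cd replicates 1, 2 and 3 (limma adjusted p = 0.0145). Its description, unlike those of the other 10 tested genes, cites no database, and 91.2% of the tested genes so described were called, so its place in the list is not independent of its change. The call was lost without Fo+Cd replicate 3, Cd replicate 1 or Cd replicate 3 (adjusted p = 0.0606, 0.0545 and 0.0711). The most abundant cysteine synthase gene, BGIOSGA035799, was at 290 ± 41.8 TPM in Fo+Cd and 313 ± 23.3 TPM in Cd (SD, n = 3 each; adjusted p = 0.711). An adenylyl-sulfate kinase gene, BGIOSGA035597, was at 41.8 ± 6.66 TPM in Fo+Cd and 37.7 ± 3.75 TPM in Cd (adjusted p = 0.673).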
